A study of Mus musculus with 3 samples.

Results

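The unfolded protein and ATF4 response genes were followed in mouse bone marrow LT-HSCs, the long-term haematopoietic stem cells from which all blood lineages derive. The 36 genes encode the sensors of protein folding stress in the endoplasmic reticulum (ER), the chaperones and oxidoreductases that fold secreted proteins there, components of ER-associated degradation, and the transcription factor ATF4 with genes of amino acid supply. They were taken as a list of gene symbols by function, with no measured value in the rule, but the list was drawn up with earlier results of these data known, so its shares are a description and not independent evidence. Of the list, 35 of the 36 were found among the 23185 probe sets that carry 1 gene symbol. Phgdh, a serine synthesis enzyme, had no row under its symbol in the table and was not analysed here.

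The unfolded protein response is run from the ER membrane by the sensors IRE1 (gene Ern1), PERK (Eif2ak3) and ATF6. IRE1 splices the Xbp1 message and ATF6 is cleaved to a transcription factor, and both raise chaperone, folding and degradation genes. PERK phosphorylates the initiation factor eIF2alpha, as do other kinases that sense amino acid shortage, viral RNA or haem shortage, which slows protein synthesis while ATF4 is translated. ATF4 then drives genes of amino acid synthesis and transport and, under lasting stress, the Ddit3, Trib3 and Chac1 programme. Haematopoietic stem cells are known for a low rate of protein synthesis and for sensitivity to misfolded protein.

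Each of the 3 groups had 1 array. All mice were female C57Bl/6 animals of 8 to 10 weeks, without any labelled allele or agent. One group was not irradiated, a second received 8 Gy of total body irradiation under the label CDR, which the labels do not spell out, and the third received 8 Gy as FLASH, which is irradiation at an ultra-high dose rate. From each, 10000 LT-HSCs were taken 15 days after irradiation of the treated mice and their total RNA was hybridised to Affymetrix whole transcript arrays. The sort gate and the number of mice behind each array were not stated in the labels. With 1 array in each group no difference has a replicate check and no test was possible, so that "higher" and "lower" describe these arrays only.

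All values are the authors' deposited levels, taken as log2 from their range. Detection in a comparison required the brighter array to exceed a level set by 1348 chemosensory receptor genes (olfactory, vomeronasal, trace amine), namely their 95th percentile on that array. It was 4.15, 4.17 and 4.25 for the non-irradiated, CDR and FLASH arrays, the order in which values are given throughout. Of the 35 measured response genes, 34 read above it on all 3 arrays and 1, Aldh1l2, on none, so the detection filter favoured no group. Of the 23185 named genes, 12696 read above it on all 3 arrays. Exact ties between arrays are common in this table: 39.8% of the 23185 named genes carry the same value on all 3 arrays, and 2 of the 35 response genes do. The table therefore gives no difference at all for such genes.

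The labelled cell type was checked first. All 11 measured LT-HSC markers read above the detection level on every array, among them Hlf (9.92, 7.92 and 8.02 on the non-irradiated, CDR and FLASH arrays) and Procr (7.15, 5.42 and 6.33). Fgd5 was not far above that level, at 4.64, 4.47 and 4.35. Against the non-irradiated array, 10 of the 11 markers were lower under CDR and 9 under FLASH, where 30.4% and 33.3% of all detected genes were. In RNA from a pool of cells, fewer cells of a type and less RNA per cell cannot be told apart. Markers of other cells were read as well. On the non-irradiated array 9 of 12 measured myeloid and dendritic markers were above the detection level, the brightest being Mpo at 12.36. For B and T cell markers it was 5 of 10. Of all 23185 named genes, 13313 were above the level on that array, so such counts alone do not tell which cells were present. The purity of the sorted cells was not tested.

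Promoters of the response genes hold short motifs through which the pathway is known to act, and 31 of the 36 genes have an entry in the RefSeq promoter table (GRCm38.p6), which spans 250 bases before to 50 bases after the annotated transcript start. Atf6, Hyou1, Manf, Aldh1l2 and Slc7a5 have none. The ER stress response element (ERSE), bound by NF-Y and by ATF6 or XBP1, was searched on both strands as CCAAT, any 9 bases, then CCACG. It was found in 8 of the 31 genes and in 0.137% of the 27025 genes of the table. The stretch around each site is shown because these 8 genes form the group described together in the results, 5′ to 3′ on the strand of the gene, with the fixed motif letters in capitals. Where the capitals read CGTGG and then ATTGG, the element lies on the opposite strand.
Hspa5 (chr2:34772010-34772058, + strand): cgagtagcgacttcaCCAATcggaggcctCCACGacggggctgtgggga
Hsp90b1 (chr10:86705518-86705671, - strand): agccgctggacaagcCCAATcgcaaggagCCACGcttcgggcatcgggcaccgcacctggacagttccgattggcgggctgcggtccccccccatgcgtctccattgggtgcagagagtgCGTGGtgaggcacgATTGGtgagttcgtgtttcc
Calr (chr8:84847060-84847108, - strand): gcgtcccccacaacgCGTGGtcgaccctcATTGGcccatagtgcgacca
Canx (chr11:50325785-50325833, - strand): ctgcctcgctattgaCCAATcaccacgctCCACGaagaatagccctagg
Pdia6 (chr12:17266476-17266524, + strand): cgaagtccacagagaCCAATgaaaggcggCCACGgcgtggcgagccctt
Dnajc3 (chr14:118937812-118937860, + strand): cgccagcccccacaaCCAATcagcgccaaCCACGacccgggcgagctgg
Creld2 (chr15:88819505-88819553, + strand): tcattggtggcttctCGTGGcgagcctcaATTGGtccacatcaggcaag
Syvn1 (chr19:6046517-6046565, + strand): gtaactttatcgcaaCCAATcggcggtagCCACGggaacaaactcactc

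Hsp90b1 held 2 copies, at positions -212 and -107 from the start, on opposite strands. The Hspa5 copy began at -65, the Syvn1 copy at -44 and the Calr copy at -162. The other motifs were the C/EBP-ATF response element (CARE), searched as TGATGNAA and bound by ATF4 with a partner, and ERSE-II, searched as ATTGG, any single base, then CCACG, both on both strands. CARE was found in 4 of the 31 genes, beside 4.51% of all genes in the table, and ERSE-II in 2, beside 0.0444%. An unfolded protein response element, TGACGTGG, was found in 0 of the 31 and in 0.714% of all genes. The CCACG letters alone, which ERSE and ERSE-II contain, was in 25 of the 31 and in 35.5% of all genes. The sites of CARE and ERSE-II are shown because genes that share them differed widely in the arrays.
Asns (chr6:7693210-7693247, - strand): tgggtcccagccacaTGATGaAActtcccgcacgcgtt
Chac1 (chr2:119351034-119351071, + strand): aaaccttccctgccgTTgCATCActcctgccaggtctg
Trib3 (chr2:152344028-152344057, - strand): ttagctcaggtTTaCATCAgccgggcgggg
Herpud1 (chr8:94386302-94386402, + strand): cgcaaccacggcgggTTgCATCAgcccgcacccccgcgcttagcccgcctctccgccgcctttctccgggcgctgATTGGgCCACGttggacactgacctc
Dnajb11 (chr16:22857845-22857871, + strand): ggcggcgATTGGcCCACGcctggctgc

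Herpud1 alone held both elements, CARE on the opposite strand at -112 and ERSE-II at -52. In Trib3 and Dnajb11 the site lies after the annotated start. A match of letters is a description of the promoter, not evidence that a factor binds there.

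On the CDR array against the non-irradiated array the response genes were mostly higher. Asns, Ero1a and Mthfd2 led, followed by the transporter genes Slc7a5 and Slc7a1. Of the 34 detected response genes 27 were higher, 4 lower and 3 identical, where 34.7% of the 13446 detected genes were higher at all and 30.4% lower. Rescaling breaks the ties, and the split was then 26 higher and 8 lower under quantile normalisation and under cyclic loess, and 31 higher and 3 lower under median centring. It also moved the median of all detected genes, to 0.04 under quantile normalisation, 0.00 under cyclic loess and 0.06 under median centring. The shares of 34.7% and 30.4% are therefore no background for the rescaled splits, whose own background was not computed. As deposited, the median difference of the response genes was 0.29 on the log2 scale (1.22-fold), beside 0.00 for all detected genes. At least 1.5-fold higher were 8, Asns, Ero1a, Mthfd2, Slc7a5, Slc7a1, Sdf2l1, Creld2 and Psat1, against a background of 3.2%, and 1, Dnajb9, was at least 1.5-fold lower, against 5.38%. Asns and Ero1a were the 2 genes at least 2-fold higher, against 0.766% of all detected genes, and 0 were at least 2-fold lower, against 2.36%.

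The FLASH array against the non-irradiated array gave a similar count with a partly different set at the top. Of the 34 genes 25 were higher, 5 lower and 4 identical, where 33.8% of 13165 detected genes were higher and 33.3% lower. The 3 rescalings gave these same splits here, 26 and 8, 26 and 8, and 31 and 3. They moved the median of all detected genes to 0.02, 0.00 and 0.02, so 33.8% and 33.3% are no background for those splits. As deposited, the median difference of the response genes was 0.32 (1.24-fold), beside 0.00 for all detected genes. Again 8 genes were at least 1.5-fold higher, against 3.61%, namely Asns, Ero1a, Mthfd2, Creld2, Sdf2l1, Slc7a5, Hyou1 and Hsp90b1. Ern1 and Dnajb9, 2 in all, were at least 1.5-fold lower, against 5.35%. Asns was the 1 gene at least 2-fold higher, against 1.18%, and 0 were at least 2-fold lower, against 1.77%. Both irradiated arrays are set against the same non-irradiated array, so these are not independent readings.

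**Figure D1:**
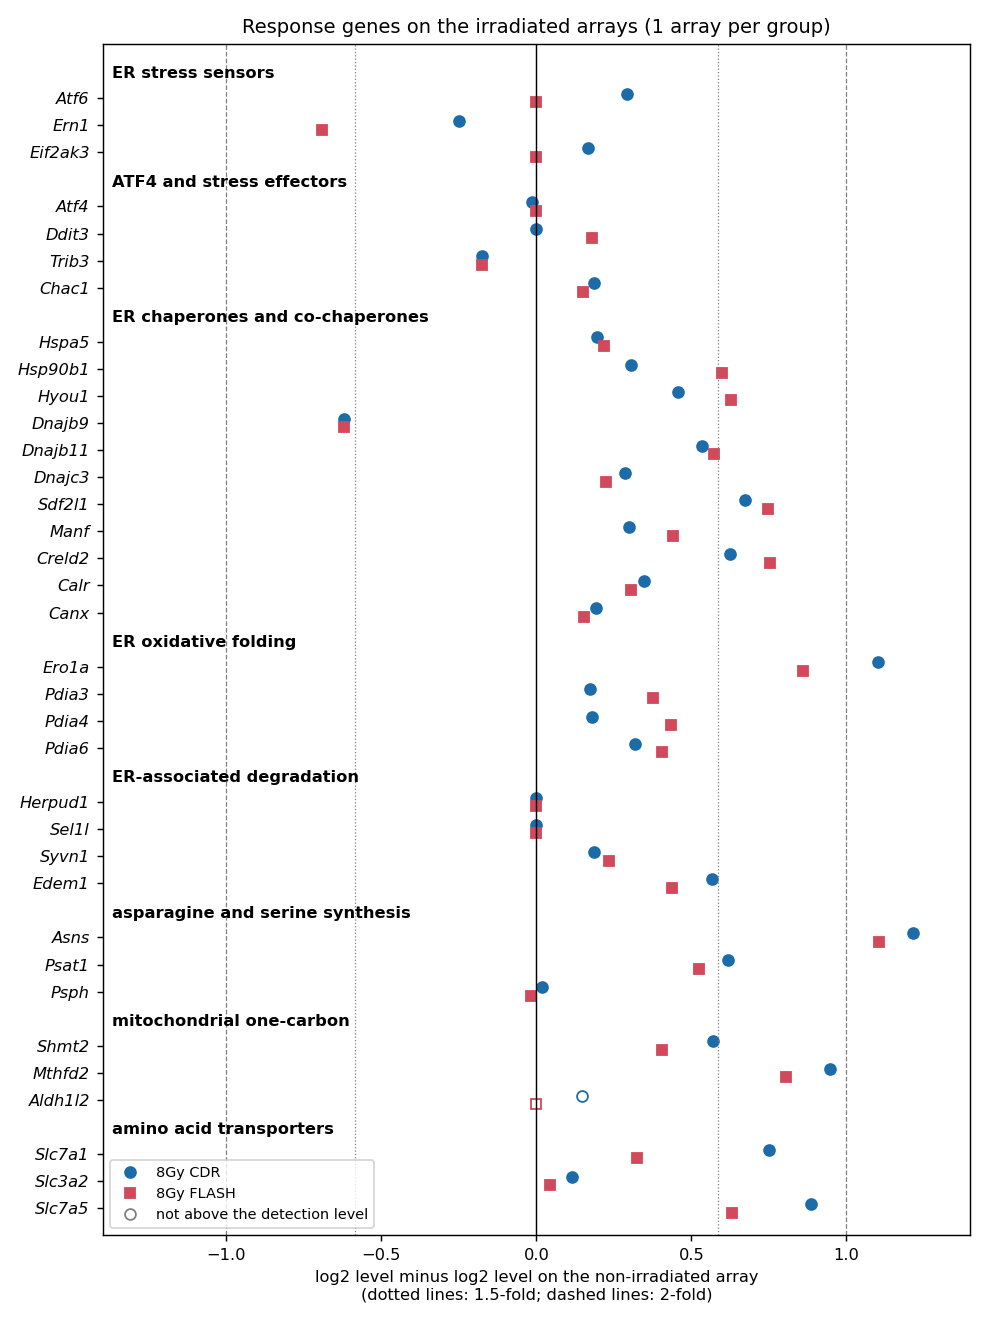
Difference of log2 level from the non-irradiated array (horizontal axis) for each of the 35 measured response genes (rows, grouped by role), on the CDR array (circles) and the FLASH array (squares); open symbols are genes not above the detection level, and each symbol is 1 array minus 1 array with no error bar. Asns, at 1.21 and 1.10, lies farthest to the right, and Dnajb9 and Ern1 lie to the left of 0 on both arrays.

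Bright genes were tied less often: 15.1% of detected genes with a mean level of at least 9 were identical on the CDR and non-irradiated arrays, against 44% of those under 7. In a split added after seeing the data, 15 detected response genes had a mean level of at least 9, and 14 of them were higher on the CDR array, where 57.1% of the 1524 detected genes in that range were. On the FLASH array 14 of these 15 were higher, beside 55.4%. Among the 16 response genes with a mean level from 7 to 9, 11 were higher on the CDR array, beside 46% of 4376 genes, and 10 on the FLASH array, beside 42.8%.

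**Figure D2:**
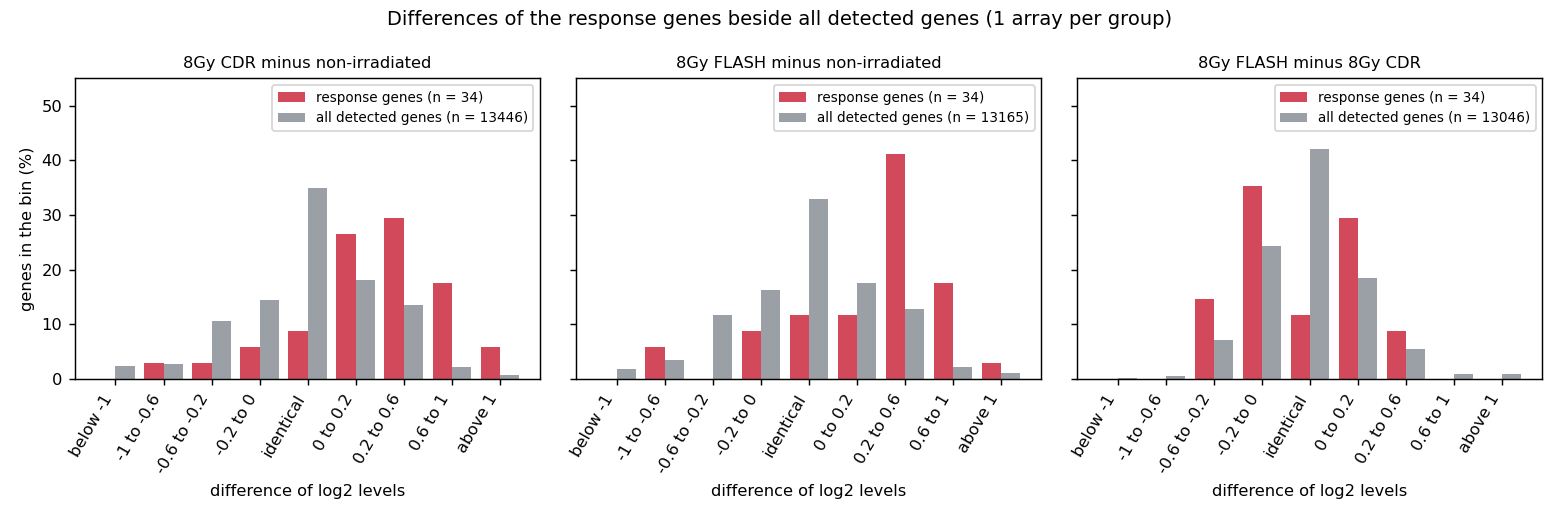
Percentage of genes (vertical axis) in each bin of the log2 difference (horizontal axis) for the 34 detected response genes (red) and all detected genes (grey), in 3 comparisons of single arrays. Against the non-irradiated array 29.4% of the response genes on CDR and 41.2% on FLASH fell in the bin from 0.2 to 0.6, where 13.5% and 12.8% of all genes did.

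Of the 3 stress sensors 2 were higher and 1 lower on CDR, and 2 were tied and 1 lower on FLASH. Ern1, the IRE1 kinase and ribonuclease, read 8.41, 8.17 and 7.72 on the non-irradiated, CDR and FLASH arrays. It was therefore lower by -0.25 on CDR and -0.69 (1.61-fold) on FLASH, and of the 13165 detected genes 515 lay further down on FLASH. Atf6 read 7.43, 7.73 and 7.43, with the same value on the non-irradiated and FLASH arrays. Eif2ak3, the PERK kinase, read 5.82, 5.99 and 5.82, again tied between the non-irradiated and FLASH arrays. All 3 sensor genes were thus lower on FLASH than on CDR, by -0.29 for Atf6, -0.44 for Ern1 and -0.17 for Eif2ak3.

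ATF4 and its stress effectors were close to level across the arrays. Atf4 read 10.76, 10.75 and 10.76, though ATF4 is controlled largely at translation, which arrays do not measure. Ddit3, the transcription factor CHOP that can lead to cell death, read 8.01, 8.01 and 8.19, with an exact tie between the non-irradiated and CDR arrays. Trib3, a pseudokinase that restrains ATF4 signalling, read 4.54, 4.37 and 4.37, not far above the detection level. Chac1, which breaks down glutathione, read 4.55, 4.74 and 4.70. None of these 4 genes differed by as much as 1.5-fold in any comparison, and their median differences were -0.01 on CDR and 0.07 on FLASH. The sign of the CDR median is not settled, since centring the arrays on their medians turned it to 0.05.

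Of the 11 ER chaperones and co-chaperones 10 were higher on both irradiated arrays, with a median of 0.31 on CDR (1.24-fold) and 0.44 on FLASH (1.36-fold). Creld2, a secreted ER stress protein, read 7.75, 8.37 and 8.50 and was higher by 0.62 and 0.75. Sdf2l1, a partner of the ER HSP40 proteins, read 8.97, 9.64 and 9.71 and was higher by 0.67 (1.59-fold) and 0.75 (1.68-fold). Both lay above the non-irradiated array by more than 1.5-fold on each irradiated array.

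The abundant chaperones themselves were less far apart. Hspa5, the BiP chaperone that holds the sensors inactive, read 10.93, 11.12 and 11.15, a difference of 0.19 (1.14-fold) and 0.22 (1.16-fold). Hsp90b1, the ER HSP90 known as GRP94, read 10.93, 11.23 and 11.53 and was higher by 0.31 and 0.60. Hyou1, the nucleotide exchange factor of BiP, read 8.43, 8.89 and 9.06 and was higher by 0.46 and 0.63. For Hsp90b1 and Hyou1 the FLASH array was the highest of the 3 and the CDR array lay in between.

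Among the HSP40 co-chaperones of BiP the directions were split. Dnajb11 read 8.66, 9.19 and 9.23, and Dnajc3, which also binds PERK and related kinases, read 9.65, 9.93 and 9.87. Dnajb9, known as ERdj4, a target of XBP1 that keeps IRE1 inactive, read 9.04, 8.42 and 8.42. Its difference of -0.62 (1.54-fold lower) was the same on both irradiated arrays because their values were identical, and 655 of 13446 detected genes lay further down on CDR. It no longer reached 1.5-fold on CDR under median centring (-0.56), nor on either array with an offset of 32 before the log (-0.58). Dnajb9 was the 1 chaperone lower than on the non-irradiated array.

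The remaining chaperones were all higher on the irradiated arrays. Manf, a secreted ER protein that binds BiP, read 9.67, 9.97 and 10.11. The lectin chaperones of glycoprotein folding were higher too, with Calr at 11.38, 11.73 and 11.69 and Canx at 10.81, 11.00 and 10.96, and for both the CDR array was the highest.

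All 4 oxidative folding genes were higher on both irradiated arrays, with a median of 0.25 on CDR and 0.42 on FLASH. Ero1a, the oxidase that passes electrons from protein disulphide isomerases to oxygen, read 7.87, 8.98 and 8.74. It was higher by 1.10 (2.15-fold) on CDR, where 77 of 13446 detected genes had a larger difference, and by 0.86 (1.82-fold) on FLASH. The isomerases differed less, with Pdia3 at 10.23, 10.40 and 10.60, Pdia4 at 9.24, 9.42 and 9.68 and Pdia6 at 9.80, 10.12 and 10.21. Their order was the opposite of that of Ero1a, with FLASH as the highest array for all 3 isomerases and CDR for the oxidase.

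The ER-associated degradation genes were tied or slightly higher. Herpud1, a membrane organiser of the degradation complex, read 8.91 on all 3 arrays and Sel1l, the adaptor of the ubiquitin ligase, read 7.83 on all 3, both exact ties. Syvn1, the ligase HRD1, read 8.03, 8.22 and 8.27. Edem1, which hands misfolded glycoproteins to degradation, read 7.21, 7.78 and 7.65 and was higher by 0.56 on CDR and 0.44 on FLASH. The ligase and its adaptor work in 1 complex, and only the ligase gene gave a difference here.

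Asns, which makes asparagine and is a standard ATF4 target, held the largest difference of the response genes on both irradiated arrays and read 7.94, 9.15 and 9.05. It was higher by 1.21 (2.32-fold) on CDR and 1.10 (2.15-fold) on FLASH, with 60 of 13446 and 126 of 13165 detected genes having a larger difference. Psat1, the second enzyme of serine synthesis, read 7.86, 8.48 and 8.39. Psph, the last enzyme of that route, read 8.16, 8.18 and 8.14, so its difference was 0.02 on CDR and -0.02 on FLASH. The 2 measured serine synthesis genes thus stood apart from each other, Psat1 at 0.62 and 0.52 and Psph near 0.

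Mthfd2, a mitochondrial folate dehydrogenase, read 6.50, 7.44 and 7.30 and was higher by 0.95 (1.93-fold) on CDR and 0.81 (1.75-fold) on FLASH. Shmt2, which splits serine into glycine and a one-carbon unit in mitochondria, read 9.81, 10.37 and 10.21. Aldh1l2, which oxidises the mitochondrial formyl unit, read 3.05, 3.19 and 3.05, under the detection level on each array, so no fold is given.

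The transporters were also higher on both irradiated arrays, the CDR array being the highest for all 3. Slc7a5, the LAT1 carrier of large neutral amino acids, read 9.95, 10.84 and 10.59, higher by 0.89 and 0.63. Its partner subunit Slc3a2 read 9.30, 9.42 and 9.35, a difference of 0.11 and 0.05. Slc7a1, the carrier of cationic amino acids, read 7.76, 8.51 and 8.08, higher by 0.75 on CDR and 0.32 on FLASH. The carrier and the partner subunit of the LAT1 transporter therefore differed by unequal amounts.

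Set by promoter motif, the 8 genes with an exact ERSE were all higher on both irradiated arrays, from 0.18 to 0.62 on CDR and from 0.15 to 0.75 on FLASH, with medians of 0.30 and 0.27. All 8 are ER folding or degradation genes, so motif and role cannot be told apart here. Of the 15 ER chaperone and oxidative folding genes, with or without the element, 14 were higher on each array, with medians of 0.31 and 0.43. The 22 measured response genes with a promoter entry and without an exact ERSE ranged from -0.62 to 1.21 on CDR, with 15 higher, 4 lower and a median of 0.18. On FLASH these 22 ranged from -0.69 to 1.10, with 14 higher and 5 lower and a median of 0.25. Outside the response genes, 29 other genes hold the ERSE letters, 11 of them detected, and of these 2 were higher and 3 lower on CDR, and 1 higher and 3 lower on FLASH. The median of these 11 was 0.00 on both arrays. Over all detected genes with a promoter entry, 3662 of 10472 were higher and 3118 lower on CDR. On FLASH 3448 of 10246 were higher and 3383 lower.

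The 4 genes with CARE shared the letters and not the difference. On the CDR array Asns was at 1.21, Chac1 at 0.19, Herpud1 at 0.00 and Trib3 at -0.17, and on FLASH the values were 1.10, 0.15, 0.00 and -0.17. Among the other genes with CARE, 102 of 284 detected were higher and 88 lower on CDR, and 93 of 271 higher and 89 lower on FLASH, with medians of 0.00. The shares that were higher are close to those over all detected genes with a promoter entry, 3662 of 10472 on CDR and 3448 of 10246 on FLASH. Of the 2 genes with ERSE-II, Dnajb11 was higher by 0.53 on CDR and 0.57 on FLASH while Herpud1 was tied on all arrays.

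The FLASH and CDR arrays were close for the response genes. Of the 34 detected, 13 were higher on FLASH, 17 lower and 4 identical, where 25.7% of 13046 detected genes were higher and 32.2% lower, and the median was -0.02. The split became 11 higher and 23 lower when each array was centred on its median. That centring put the median of all detected genes at -0.03 and turned every tie into a lower value. The 32.2% is therefore no background for the 23. Counts at thresholds were 0 throughout: 0 at least 1.5-fold higher against a background of 1.86%, 0 at least 1.5-fold lower against 0.79%, 0 at least 2-fold higher against 0.859% and 0 at least 2-fold lower against 0.146%.

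Within that narrow range 2 sets of response genes, each pooled from several roles, gave different counts. All 8 detected genes of amino acid synthesis, mitochondrial folate metabolism and amino acid transport were lower on FLASH, with a median of -0.13 and a range from -0.43 (Slc7a1) to -0.04 (Psph). Of the 15 ER chaperone and oxidative folding genes 10 were higher on FLASH and 4 lower, with a median of 0.07. These were led by Hsp90b1 at 0.29 (1.23-fold), Pdia4 at 0.25 and Pdia3 at 0.20, while Ero1a was at -0.24. Lower in all 8 held under median centring, quantile normalisation and cyclic loess, where the chaperone and folding genes were higher in 9, 11 and 11 of the 15. Under median centring the 11 chaperones alone were 6 higher and 5 lower, with a median of 0.005. Outside the 2 sets, all 3 sensors were lower on FLASH as deposited. The ATF4 and effector genes were 2 higher and 1 lower, and the degradation genes 1 and 1. Lists of other genes in these pathways, described below, did not all follow the split between the 2 sets. Of 13 other ER folding enzymes 4 were higher on FLASH and 6 lower. Among 20 translocon and oligosaccharyltransferase genes the counts were 2 and 13. Of 10 other serine, glycine and folate genes 6 were higher and 2 lower, and of 11 other reported ATF4 targets 2 and 6. All these differences are under 1.5-fold between single arrays, and whether the groups differ was not tested.

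**Figure D3:**
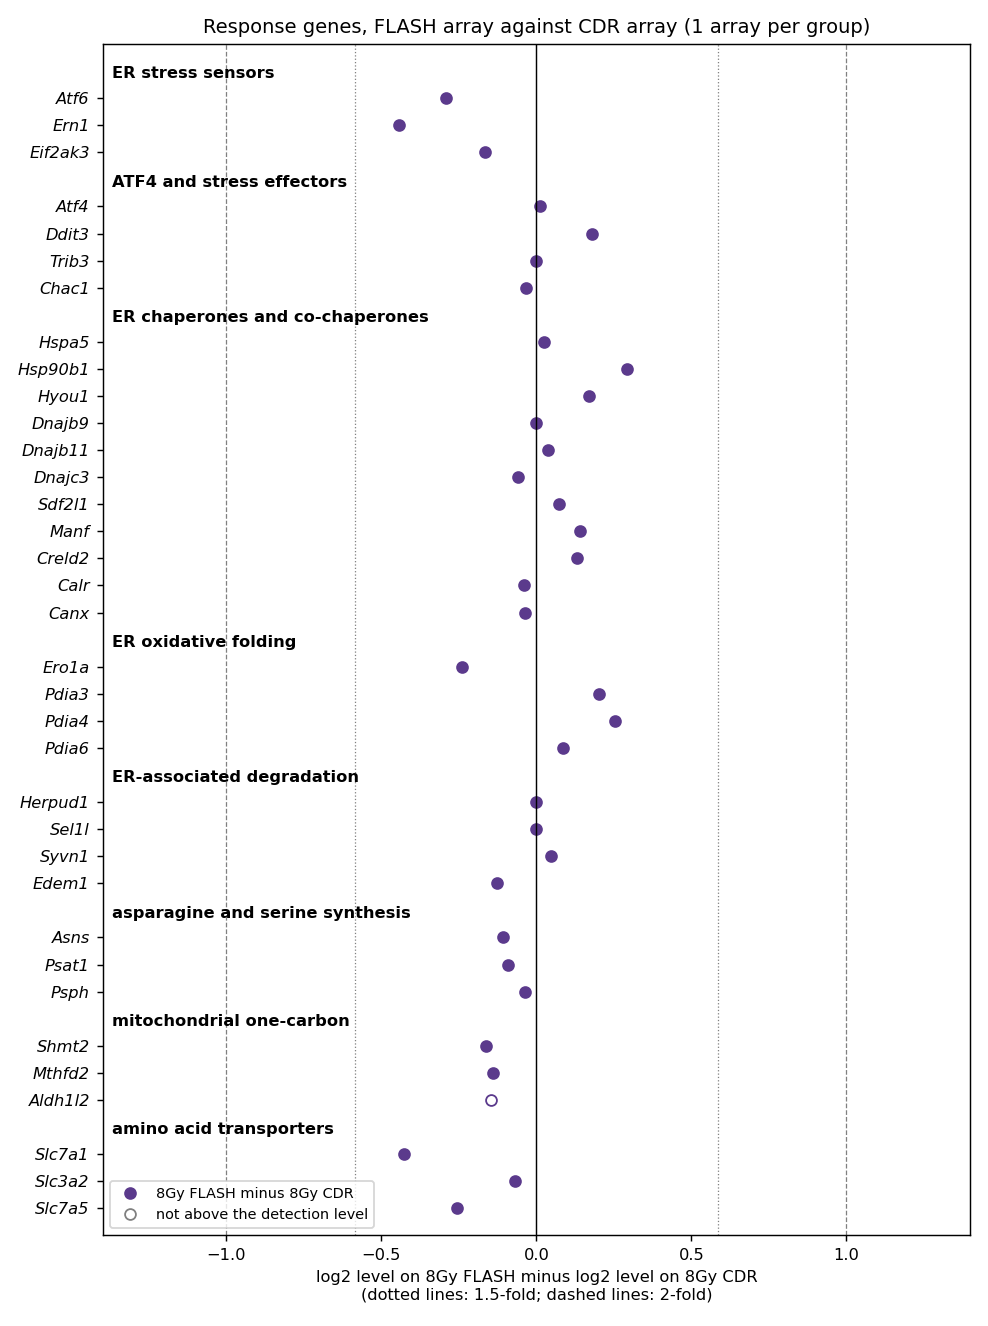
Log2 level on the FLASH array minus that on the CDR array (horizontal axis) for each measured response gene (rows, grouped by role); each point is 1 array minus 1 array with no error bar, and the open point is not above the detection level. All points lie inside the 1.5-fold lines, from -0.44 (Ern1) to 0.29 (Hsp90b1), and every detected gene of amino acid and one-carbon supply lies to the left of 0.

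Other genes of the same pathways, in 8 lists by function with 92 measured genes, were compared in the same way. Of 89 detected on CDR, 51 were higher and 13 lower with a median of 0.07, and of 86 detected on FLASH, 46 were higher and 16 lower with a median of 0.01. Over all detected genes 34.7% were higher and 30.4% lower on CDR, and 33.8% and 33.3% on FLASH. At least 1.5-fold higher were 1 on CDR and 3 on FLASH, where 3.2% and 3.61% of all detected genes were. Another 3 on each were at least 1.5-fold lower, where 5.38% and 5.35% of all detected genes were. As shares of 89 or 86 genes, none of these counts exceeds its background.

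The same 3 genes made up the lower ones on both arrays. Ppp1r15a, the stress-induced phosphatase subunit GADD34 that reverses eIF2alpha phosphorylation, read 9.51, 8.57 and 8.32, lower by -0.93 and -1.18. Ddit4, an mTORC1 inhibitor that ATF4 and other stress factors induce, read 7.67, 6.56 and 6.06, and Vldlr, a lipoprotein receptor, read 7.21, 6.31 and 6.05. For each of the 3 the FLASH array was the lowest.

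Of the eIF2 kinases Eif2ak1, the haem-regulated kinase, was higher by 0.36 on CDR and 0.37 on FLASH, and Eif2ak2, the kinase of double-stranded RNA, by 0.11 on both. Among ATF4 pathway transcription factors 4 of 7 were exact ties on both irradiated arrays, and Atf3 read 7.04, 7.11 and 7.64. The neutral amino acid carriers Slc1a4 and Slc1a5 were higher on CDR, by 0.55 and 0.51, and by 0.28 each on FLASH. Both lay lower on FLASH than on CDR, though Slc1a4 was dim, at 4.85, 5.40 and 5.13. Of the 11 detected genes in their list, other reported ATF4 targets, 6 were lower on FLASH than on CDR and 2 higher. Xbp1 itself read 8.43, 8.62 and 8.77, counting spliced and unspliced message together.

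Further ER genes were more often higher than lower, by small amounts. Of all detected genes 34.7% were higher on CDR and 33.8% on FLASH, but brighter genes were higher more often. The shares were 57.1% and 55.4% at a mean level of at least 9, and 46% and 42.8% from 7 to 9. The counts of the folding, degradation and folate lists below are not far from these shares of brighter genes. In the translocon and oligosaccharyltransferase list, which moves and glycosylates new proteins, 16 of 20 genes were higher and 1 lower on CDR with a median of 0.21, and 14 higher and 3 lower on FLASH with a median of 0.13. Stt3b, a catalytic subunit of the glycosyltransferase, stood at 0.48 and 0.46. Of 13 other folding enzymes 8 were higher on each irradiated array, with medians of only 0.08 on CDR and 0.01 on FLASH. Among them Uggt1, the glycoprotein folding checkpoint, stood at 0.51 and 0.45. Of 14 other degradation genes 8 were higher and 2 lower on CDR, and 7 higher and 3 lower on FLASH, with medians of 0.08 and 0.04. The ubiquitin conjugating enzyme gene Ube2g2 stood at 0.49 and 0.73, and Selenok at -0.27 and -0.16. In the list of other serine, glycine and folate genes 5 of 10 were higher on each array, with the cytosolic folate enzyme Mthfd1 at 0.64 and 0.74 and the mitochondrial Mthfd1l at 0.49 and 0.17, while Aldh1l1 stood at -0.55 and -0.54.

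**Figure D4:**
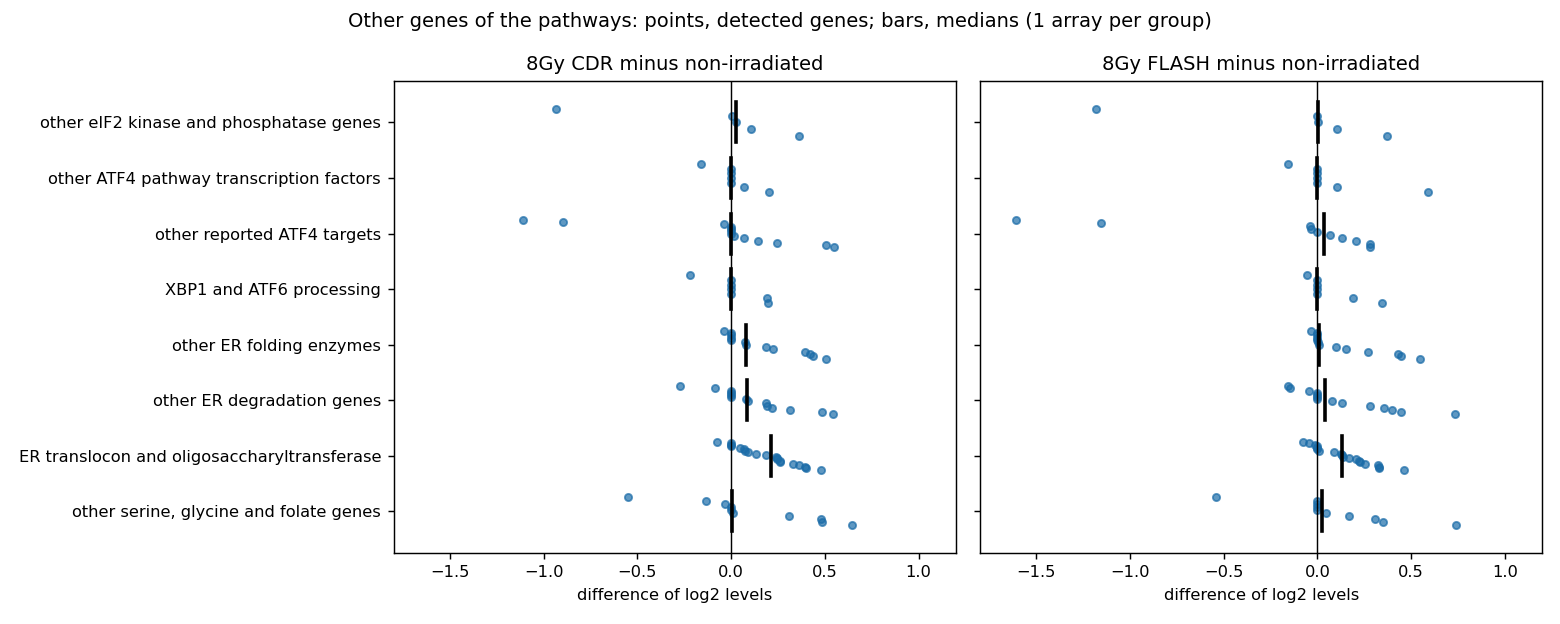
Log2 difference from the non-irradiated array (horizontal axis) of the detected genes (points) in 8 lists of other pathway genes (rows), with the list median as a black bar, for the CDR array (left) and the FLASH array (right), 1 array per group. The translocon list has the highest median, 0.21 on CDR and 0.13 on FLASH, and the points farthest to the left are Ddit4, Vldlr and Ppp1r15a.

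Markers of other cells and of division also differed between the arrays. Of all detected genes 34.7% were higher on CDR and 33.8% on FLASH, and of those with a mean level of at least 9, 57.1% and 55.4%. All 11 measured division markers were higher on both irradiated arrays, with medians of 0.42 on CDR and 0.49 on FLASH, and their summed linear level was 6320, 8680 and 8986. All 8 detected erythroid markers were also higher, with medians of 1.08 and 1.38 and summed levels of 717, 1599 and 1861. Their part in the higher chaperone and amino acid genes was not tested.

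Markers of antibody-secreting cells, which carry a large ER, differed between the arrays as well. Of their 9 detected markers 7 were lower on CDR and 1 higher, and 4 were lower on FLASH and 2 higher. Over all detected genes 30.4% were lower on CDR and 33.3% on FLASH. The summed level of the 10 measured markers was 1409, 710 and 1276. Jchain, the joining chain of secreted antibodies, read 9.79, 7.65 and 9.37, Mzb1 read 6.50, 5.22 and 6.06, and Prdm1, a defining factor of these cells named after its values were seen, read 3.76 on every array, under the detection level. Fkbp11 and Derl3 of this list also stand in the ER lists. Between FLASH and CDR 6 of the 9 markers were higher on FLASH, beside 25.7% of all detected genes, with Jchain at 1.72. The part of these cells in the differences of the response genes was not tested.

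The lists of other blood and stromal cells held genes that differed in both directions. Over all detected genes 34.7% were higher and 30.4% lower on CDR, and 33.8% and 33.3% on FLASH. Of the detected myeloid and dendritic markers 7 of 9 were higher on CDR and 7 of 10 on FLASH, with H2-Eb1, a class II antigen presentation gene, at 1.06 and 2.36 and Clec9a, a dendritic cell receptor, at 0.95 and 2.15. Itgam, an integrin of myeloid cells, stood at -0.66 and -1.35. The summed level of this list, 7745, 9158 and 8818, is mostly that of its brightest genes. In the mast cell and basophil list, summed at 1781, 1271 and 1425, 2 of 7 detected genes were higher on CDR and 3 on FLASH. There the mast cell protease gene Tpsb2 was at least 3.33-fold higher on CDR and at least 6.30-fold higher on FLASH, against a non-irradiated value under the detection level, and Prss34, a basophil protease gene, stood at -2.71 and -1.38. The endothelial and stromal list, summed at 890, 768 and 1008, had 2 of 7 higher on CDR and 3 of 7 on FLASH, with Plvap at 0.55 and 1.12, Sparc at -0.13 and 1.07 and Emcn at -0.93 and -0.99. In the B and T cell list, summed at 689, 525 and 416, 3 of 5 detected genes were lower on each irradiated array. The part of these cells in the results was not tested either.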

How the data were processed

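Per the labels' protocols, total RNA was turned into biotinylated cDNA with an Affymetrix whole transcript kit. The deposited table holds the authors' log2 level of each of 25206 probe sets on 3 arrays. The submitters' processing notes name Partek, without version. How the arrays were background corrected, summarised and normalised is not given in the sources used here, and the log base is inferred from the range of values. The platform table named 23185 probe sets with 1 gene symbol each, 0 with several, and left 2021 unnamed.

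Values were used as deposited and compared as differences of log2 levels. Calls used thresholds of 1.5-fold and 2-fold among detected genes. No test was made, because each group had 1 array, and that number is the limit on precision. Other settings tried were centring on the median, cyclic loess and quantile normalisation (limma 3.58.1, R 4.3.3), an offset of 32 before the log, no filter, a detection level at the 99th percentile, dim values raised to the level, a 3-fold threshold and means. All 36 response genes are named where measured. From each other pathway list, genes were named among the 2 largest differences in each direction of a comparison, and from each marker list at most 3 by the same rule. Prdm1, Derl3 and Mpo fall outside it and were chosen after their values were seen. The members and lists were chosen with earlier results of these data known. Promoter sequences are RefSeq's (GRCm38.p6). Protein sequences were not used here. Python 3.11.15, numpy 2.4.6, pandas 2.3.3 and matplotlib 3.10.9 were used, and the counting steps were tested on simulated data.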

Additional observations from a re-analysis of the deposited data

How the results depend on the processing

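With the fold threshold at 1.5 in place of 2, the response genes past it numbered 8 higher and 1 lower on CDR and 8 higher and 2 lower on FLASH against the non-irradiated array. At a threshold of 3 there were 0 higher on either. The counts at 2-fold, 2 and 0 on CDR and 1 and 0 on FLASH, stayed within 1.5 times under the other alternatives. The counts at 1.5-fold became 11 and 0 on CDR and 9 and 2 on FLASH under median centring, and 6 and 0 and 7 and 1 with the offset. The median over all 34 genes moved by less than 0.1 on the log2 scale with its sign kept in each comparison. Of the values of single genes under other settings, 413 moved by less than 0.1 and 7 moved by more, all with the offset of 32, and 0 of those at least 1.5-fold apart changed sign. The signs of Atf4, Psph and, between FLASH and CDR, Hspa5 turned under at least 1 scaling, from differences of at most 0.02. No paired analysis was possible because each group has 1 array. Signal near the detection level limits Trib3 and Chac1, and exact ties limit Herpud1 and Sel1l.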
